A study of Mus musculus with 60 samples.

Results

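The receptors for retinoic acid described here are the 6 genes Rara, Rarb and Rarg (the retinoic acid receptors, RAR) and Rxra, Rxrb and Rxrg (the retinoid X receptors, RXR). They were taken by symbol from the 20423 genes of the count table, all 6 were found, and all 6 passed the filter on low counts in every region. The family was chosen by the measured change of Rara, which had been called lower in the cerebellum of PON2-deficient mice, so the cerebellar genotype values below describe the members and test nothing. RNA was measured in 60 libraries from cerebellum, striatum and cortex, with 5 libraries for each combination of region, sex and genotype. The PON2-deficient mice were homozygous for a disrupted Pon2 gene, which encodes the lactonase paraoxonase 2, and the wild-type mice were their littermates. Both were offspring of heterozygous parents (C57BL/6J), were 3 to 4 months old, and had been through behavioural tests before dissection. The tissue of each region was dissected, frozen and pulverised whole, so every library mixes all cell types of its region. The labels do not state whether equal replicate numbers in different regions belong to 1 mouse, and p-values measure the spread between these libraries.

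Retinoic acid is made from vitamin A in the cell or its neighbours and acts by binding RAR, which sits on DNA as a pair with an RXR. Without the ligand the pair holds corepressors, and with it the pair recruits coactivators and the gene nearby is transcribed. RXR is also the obligate partner of thyroid hormone, vitamin D, liver X and peroxisome proliferator receptors. In the brain, RARβ and RXRγ are known from the striatum, where retinoic acid signalling takes part in the development of dopamine-receptive neurons, and RARα is known for a role in synaptic scaling.

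The genes lie on 6 chromosomes of the mouse genome (GRCm38, GENCODE M21). Rara (ENSMUSG00000037992.16) lies at chr11:98927818-98974942 on the plus strand, Rarb (ENSMUSG00000017491.9) at chr14:16430839-16819156 on the minus strand and Rarg (ENSMUSG00000001288.15) at chr15:102234938-102257517 on the minus strand. Rxra (ENSMUSG00000015846.15) lies at chr2:27676440-27762957, Rxrb (ENSMUSG00000039656.17) at chr17:34031812-34038399 and Rxrg (ENSMUSG00000015843.10) at chr1:167598384-167639623, all on the plus strand. Rarb shares 1793 exonic bases with Top2b (a DNA topoisomerase) and 227 with the antisense transcript Gm48162 on the other strand. It is not stated whether the counting used strand, so the Rarb counts may hold reads of these neighbours. Top2b had a mean of 173 CPM in PON2-deficient and 163 CPM in wild-type cerebellum, 92.5 and 104 CPM in striatum, and 97.3 and 99.0 CPM in cortex, highest in the region where Rarb was lowest. CPM, the usual unit of counts relative to the total of the library, were scaled by TMM.

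Rarb is itself a textbook target of retinoic acid, through an element just before the start of its shorter transcript. RefSeq (GRCm38.p6) gives 13 start windows for the 6 genes, each of 250 bases before and 50 after a transcript start. They were searched on both strands for direct repeats spaced by 5 bases, written as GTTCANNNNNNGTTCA, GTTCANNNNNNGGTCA, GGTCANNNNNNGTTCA and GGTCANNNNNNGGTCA. The Rarb window held 1 match, which with the base before it ran from 53 to 37 bases before the start (chr14:16575513-16575529), and the other 12 windows held none. Among all 32851 RefSeq windows of this length, 81 (0.247%) held a match. Repeats with spacings of 2 and 1 (GTTCANNNGTTCA and GTTCANNGTTCA, with GGTCA allowed in place of either GTTCA) were found in none of the 13 windows, against 0.399% and 0.402% of all windows. A match describes letters only. The 30 bases around the Rarb match (chr14:16575506-16575535, minus strand, which GENCODE annotates as exonic in a longer Rarb transcript and in Gm48162) are shown with the matched repeat and the base before it in capitals, and beside them the 250 bases before a RefSeq start of Rxrg (chr1:167598112-167598361, plus strand, outside any annotated gene) and of Rara (chr11:98937446-98937695, plus strand, in an intron of a longer Rara transcript), since these are the leading members of striatum and cerebellum described next.
Rarb: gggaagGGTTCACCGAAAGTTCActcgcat
Rxrg: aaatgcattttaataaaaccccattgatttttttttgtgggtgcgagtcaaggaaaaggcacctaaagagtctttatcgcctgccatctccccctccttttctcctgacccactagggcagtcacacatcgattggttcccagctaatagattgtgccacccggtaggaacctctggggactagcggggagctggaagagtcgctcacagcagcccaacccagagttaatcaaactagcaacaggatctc
Rara: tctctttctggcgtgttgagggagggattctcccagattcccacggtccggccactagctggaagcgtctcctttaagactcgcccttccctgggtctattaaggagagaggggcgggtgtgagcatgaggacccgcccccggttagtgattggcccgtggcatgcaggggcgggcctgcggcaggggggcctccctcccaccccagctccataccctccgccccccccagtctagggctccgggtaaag

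Library totals lay between 26.1 M and 28.1 M counts, so that 1 CPM was 25.2 to 29.9 counts. Pon2 checked the genotype labels: its mean was 0.759 CPM in PON2-deficient and 42.8 CPM in wild-type cerebellum, 3.85 and 51.2 CPM in striatum, and 3.45 and 55.5 CPM in cortex, and no PON2-deficient library reached a wild-type one. In striatum, replicate 5 of the PON2-deficient males stood apart from the other libraries in the mean of its deposited precision weights (1.956), and it had the lowest Rxra of the striatal libraries. Every region difference of the members below kept its direction and its call without it. The region labels were borne out by marker genes, least sharply that of cortex. The summed level of 10 granule neuron markers was 4940 to 5820 CPM in cerebellum and at most 180 CPM elsewhere, and that of 11 striatal projection neuron markers 4510 to 8890 CPM in striatum and at most 1540 CPM elsewhere. The 10 cortical excitatory neuron markers summed to 2030 to 2690 CPM in cortex. Their sums reached 1470 CPM in cerebellum and 1190 CPM in striatum.

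To determine which receptors each region used, levels were compared per kilobase of exon. In striatum, Rarb made up 72.0 ± 4.47% of the RAR sum and Rxrg 64.6 ± 3.99% of the RXR sum (SD, n = 20). In cerebellum the leading members were Rara, with 51.1 ± 3.25% of the RAR sum, and Rxrb, with 79.3 ± 1.98% of the RXR sum. Cortex had no leading RAR: Rara held 39.1 ± 4.85%, Rarg 34.5 ± 4.84% and Rarb 26.4 ± 4.38%, while Rxrb held 55.6 ± 3.01% of the RXR sum. The summed levels differed as well. The 3 RAR genes together reached 8.05 ± 0.928 CPM per kb in cerebellum, 17.5 ± 2.49 in striatum and 7.33 ± 0.764 in cortex, and the 3 RXR genes 19.0 ± 0.832, 69.5 ± 10.0 and 29.1 ± 2.24 CPM per kb in the same order of regions. The mean RXR sum was above the mean RAR sum in each region. In whole tissue, more cells of a type and more RNA per cell cannot be told apart. The cortex libraries also held striatal projection neuron markers, at sums of 763 to 1540 CPM against 4510 to 8890 CPM in striatum. Their part in the cortical shares of Rarb and Rxrg was not tested.

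**Figure D1:**
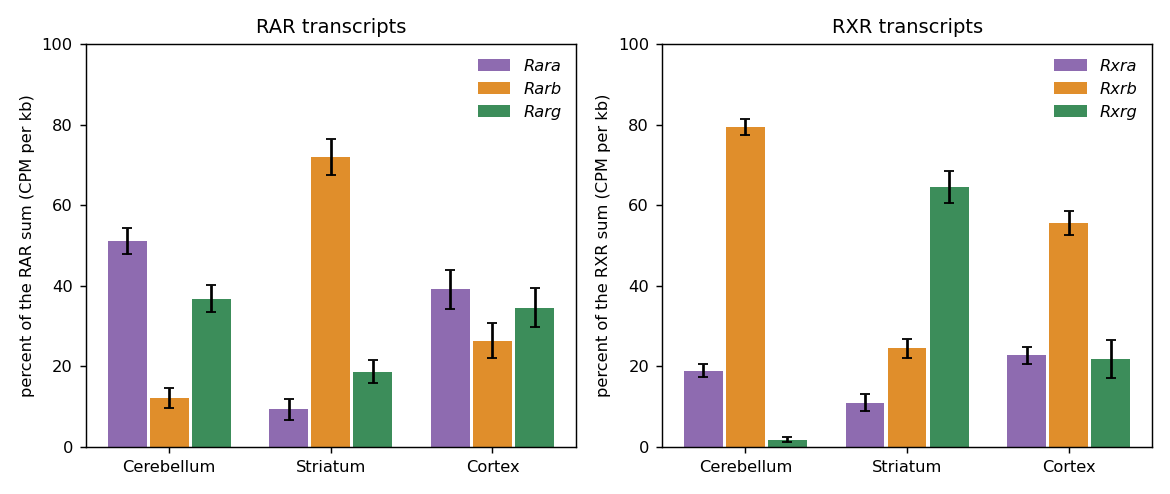
Mean share of each receptor in the sum of its family per kilobase of exon (percent), by region, with error bars of 1 SD over 20 libraries. Rarb and Rxrg hold 72.0% and 64.6% of their families in striatum, and Rara and Rxrb hold 51.1% and 79.3% in cerebellum.

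The order of all 6 members by CPM per kb was Rxrb, Rara, Rxra, Rarg, Rarb, Rxrg in cerebellum, Rxrg, Rxrb, Rarb, Rxra, Rarg, Rara in striatum, and Rxrb, Rxra, Rxrg, Rara, Rarg, Rarb in cortex. In striatum every neighbouring pair kept its order in 20 of 20 libraries. In cerebellum Rara was above Rxra in 15 of 20 libraries and Rxra above Rarg in 18. In cortex the closest neighbours were Rxra and Rxrg (Rxra higher in 13 of 20 libraries), followed by Rara and Rarg (Rara higher in 16) and Rarg and Rarb (Rarg higher in 18). With the length of the longest transcript in place of the exon length, Rarg passed Rxra in cerebellum and Rarg was above Rarb in only 12 of the 20 cortex libraries, so these pairs have no settled order. Rxrb was then above Rarb in 16 of the 20 striatal libraries. By genotype, Rara held 49.8 ± 3.30% of the RAR sum in PON2-deficient and 52.3 ± 2.86% in wild-type cerebellum, Rarb 71.9 ± 5.25% and 72.1 ± 3.83% in striatum, and Rxrg 65.1 ± 4.53% and 64.1 ± 3.53% of the RXR sum in striatum (SD, n = 10).

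The regions were then compared gene by gene with edgeR over the 60 libraries, with p-values adjusted over 20387 genes. Between striatum and cortex 5 of the 6 members differed, where 57% of all genes did (28.8% higher and 28.2% lower in striatum). Between cerebellum and cortex all 6 differed, against 79.6% of all genes (40.1% higher and 39.5% lower in cerebellum), and between cerebellum and striatum all 6, against 79.8% (39.7% higher and 40.2% lower). Counts of calls therefore say little about the receptors, and the sizes of the differences carry the result. The share of all genes whose libraries do not overlap between regions was not counted. An absence of overlap below is therefore description only and may be common among genes.

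Rxrg, the RXR known from striatal projection neurons, had the widest range. It measured 0.311 to 1.41 CPM in cerebellum (median 0.765), 66.1 to 154 CPM in striatum (median 98.8) and 9.12 to 25.1 CPM in cortex (median 13.6), with no overlap between any of the regions. In counts, the cerebellar libraries held 9 to 41 Rxrg reads each, so differences within cerebellum are poorly resolved. The log2 difference was -7.09 between cerebellum and striatum (SE 0.148, adjusted p = 2.846e-43), and 0.481% of all genes differed by more. It was 2.82 between striatum and cortex (SE 0.109, adjusted p = 3.086e-29), where 0.495% of genes differed by more, and -4.27 between cerebellum and cortex (SE 0.148, adjusted p = 1.015e-32), where 2.61% did.

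Rarb, the RAR of the striatum, followed the same order on a smaller scale. It measured 3.49 to 8.26 CPM in cerebellum (median 4.61), 45.6 to 89.8 CPM in striatum (median 66.7) and 7.62 to 17.3 CPM in cortex (median 9.32). The striatal libraries were all above the rest, and 19 of 20 cerebellar libraries were below every cortical one. The log2 difference was -3.71 between cerebellum and striatum (SE 0.0976, adjusted p = 1.755e-38), 2.71 between striatum and cortex (SE 0.0920, adjusted p = 1.194e-31) and -0.996 between cerebellum and cortex (SE 0.0960, adjusted p = 7.786e-14). Its striatal excess over cortex was exceeded in size by 0.638% of all genes. The difference between cerebellum and striatum was exceeded by 3.82%, and that between cerebellum and cortex by 25.5%.

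Rara ran the other way. It measured 12.6 to 22.5 CPM in cerebellum (median 18.7), 5.24 to 9.90 CPM in striatum (median 6.93) and 8.88 to 15.2 CPM in cortex (median 13.2). All cerebellar libraries were above all striatal ones, and 17 of 20 were above every cortical one. The log2 difference was 1.37 between cerebellum and striatum (SE 0.0590, adjusted p = 2.529e-28), 0.52 between cerebellum and cortex (SE 0.0572, adjusted p = 7.646e-12) and -0.85 between striatum and cortex (SE 0.0592, adjusted p = 1.384e-18). Of all genes, 18.7%, 45.8% and 10.9% differed by more in these 3 comparisons, so the sizes for Rara were less unusual than those for Rxrg.

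**Figure D2:**
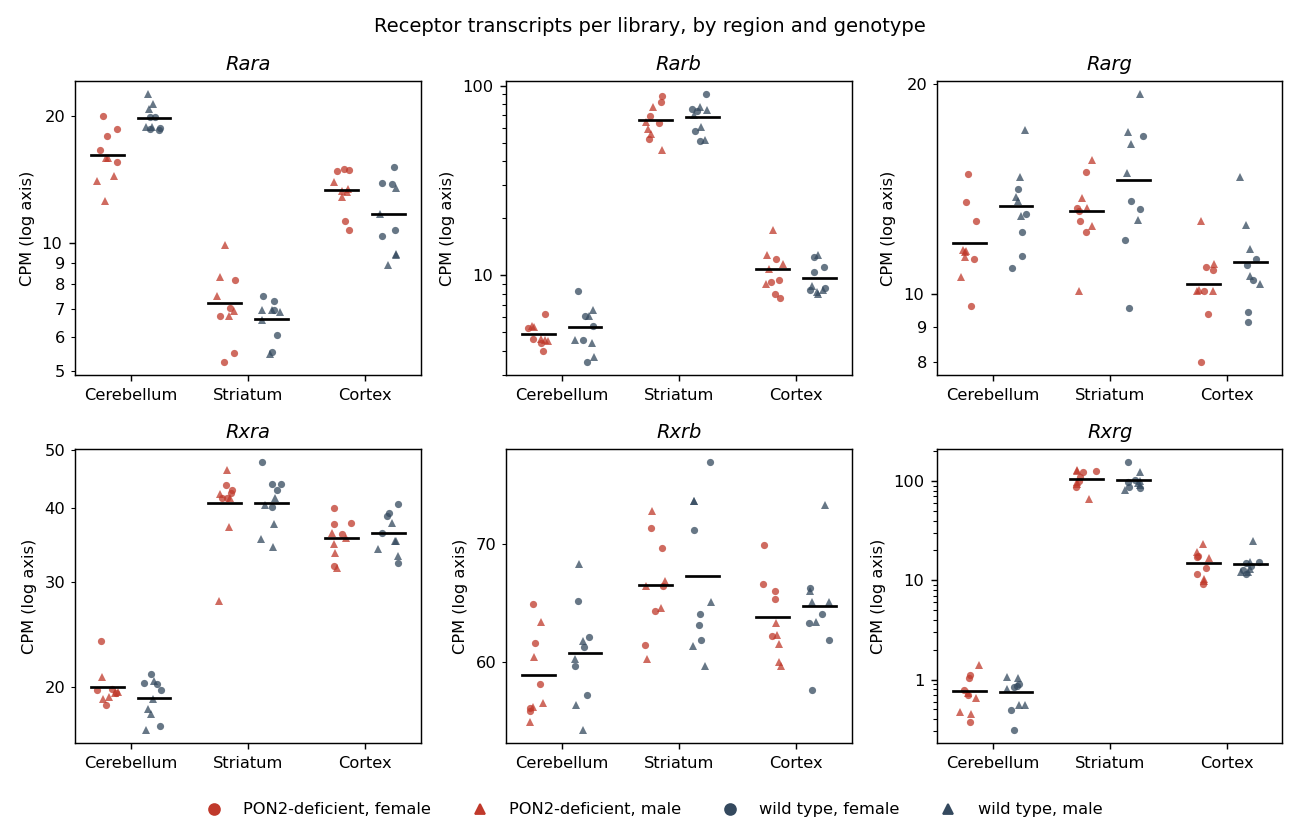
Level of each receptor in CPM (log axis; the range differs between panels) in every library, by region, with PON2-deficient libraries left of wild-type ones and a bar at the mean of 10 libraries. Striatal Rxrg lies between 66.1 and 154 CPM and cerebellar Rxrg between 0.311 and 1.41 CPM, while the genotypes overlap within every region over both sexes.

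The other members differed less from striatum than Rarb and Rxrg did. Rxra, the RXR found in most tissues, measured 17.0 to 23.97 CPM in cerebellum (median 19.6), 27.95 to 47.7 CPM in striatum (median 41.6) and 31.7 to 40.5 CPM in cortex (median 35.9). The cerebellum did not overlap with the others, and the log2 difference was -1.05 to striatum (SE 0.0398, adjusted p = 5.533e-31) and -0.87 to cortex (SE 0.0398, adjusted p = 3.638e-27). Of all genes, 25.2% differed by more from striatum and 29% by more from cortex. Striatum and cortex overlapped, with a log2 difference of 0.18 (SE 0.0390, adjusted p = 7.052e-05), where 55% of genes differed by more. Rarg, an RAR best known from skin, measured 12.6 ± 1.79 CPM in cerebellum, 13.9 ± 2.35 in striatum and 10.7 ± 1.44 in cortex (SD, n = 20), overlapping in all. Its log2 difference was 0.37 between striatum and cortex (SE 0.0592, adjusted p = 4.035e-07), 0.23 between cerebellum and cortex (SE 0.0592, adjusted p = 0.00041) and -0.14 between cerebellum and striatum (SE 0.0587, adjusted p = 0.0325). Rxrb was the flattest, at 59.9 ± 3.61 CPM in cerebellum, 66.8 ± 5.32 in striatum and 64.1 ± 3.56 in cortex (SD, n = 20). It was lower in cerebellum than in striatum by a log2 difference of -0.16 (SE 0.0312, adjusted p = 9.554e-06) and than in cortex by -0.10 (SE 0.0312, adjusted p = 0.0041). Between striatum and cortex it was not called (log2 0.06, SE 0.0312, adjusted p = 0.0944).

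The genes whose levels over the 60 libraries were most like each member were found by Pearson's r of log2 CPM among 13968 other genes. The 60 points form 3 regions, so these values mostly restate the order of regions. Rxrg was most like Pde1b, Smpd3 and Tmem158 (r = 0.992, 0.991 and 0.991), Rarb most like Tomm70a, Penk (the enkephalin precursor of striatal neurons) and Klhl13 (0.988, 0.987 and 0.986), and Rara most like Lsm11, Tmem151b and Cbfa2t3 (0.949, 0.944 and 0.944). Rxra was most like Alk, Ptprf and Slc24a4 (0.969, 0.968 and 0.968). For the flat members the best values were lower, 0.672 for Rarg with Pard6b and 0.732 for Rxrb with Insyn1. After the mean of each of the 12 groups was subtracted, Rarb went most closely with Chst15, Adcy5 (the adenylyl cyclase of striatal neurons) and Dclk3 (r = 0.666, 0.658 and 0.653), and Rxrg with Klhl13, Serpine2 and Tacr1 (0.619, 0.603 and 0.582). Rara went most closely with Mapk11, Tmem151b and Syt13 (0.669, 0.652 and 0.623). Between members, the deviations of Rarb and Rxrg had r = 0.414 and those of Rara and Rarb -0.227. These correlations share library and depth and carry no test.

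The change with genotype was examined first in cortex. None of the 6 members was called there by edgeR, where 6 of 18972 genes (0.0316%) were. At an unadjusted p under 0.05, Rara alone of the 6 passed, as did 11.4% of all genes. No member was called in cortex under any of the alternatives either, DESeq2 and limma included. Rara measured 10.8 to 14.97 CPM in PON2-deficient cortex (median 13.35) and 8.88 to 15.2 CPM in wild-type cortex (median 11.25). The log2 change was 0.20 (SE 0.0887, unadjusted p = 0.0390, adjusted p = 0.407), with 9 of 10 PON2-deficient libraries above the wild-type median and ranges that overlapped. Rarb measured 7.62 to 17.3 CPM in PON2-deficient cortex (median 10.1) and 7.99 to 12.8 CPM in wild-type cortex (median 8.67), with a log2 change of 0.14 (SE 0.120, adjusted p = 0.707). The remaining changes were -0.10 for Rarg (95% interval -0.25 to 0.04), -0.03 for Rxra (-0.12 to 0.06), -0.02 for Rxrb (-0.08 to 0.04) and 0.02 for Rxrg (-0.31 to 0.34), with adjusted p between 0.640 and 0.980.

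In males alone, 28 genes (0.148%) were called in cortex and in females 1 (0.00527%), with no member in either. At an unadjusted p under 0.05 in males were Rara, Rarb and Rxrb, 3 of 6 members, and 14% of all genes. The male libraries also differed in their slope of deviation on gene length. It ran from -0.0339 to -0.0034 in wild-type and from -0.0068 to 0.0136 in PON2-deficient male cortex. With this slope as a covariate 1 gene, no member, was called in male cortex. The Rxrb change over both sexes was then 0.00707. The cause of the slopes was not tested. Rara in male cortex measured 13.3, 12.8, 13.2, 13.95 and 13.4 CPM in the PON2-deficient libraries, against 11.8, 9.42, 13.5, 9.39 and 8.88 CPM in the wild-type ones. All 5 PON2-deficient values were above the wild-type median, and wild-type replicate 3 lay among them (log2 change 0.33, SE 0.126, adjusted p = 0.239). Female Rara overlapped widely, at 11.3, 14.9, 14.97, 14.8 and 10.8 CPM in PON2-deficient and 13.8, 15.2, 13.9, 10.7 and 10.4 CPM in wild-type cortex (log2 change 0.06, SE 0.125, adjusted p = 0.963). The difference of the sexes in the Rara change was 0.27 and was not called (SE 0.177, adjusted p = 0.659).

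Rxrb in male cortex measured 60.04, 61.5, 59.8, 63.2 and 62.2 CPM in the PON2-deficient libraries, against 65.0, 63.3, 73.7, 65.9 and 65.0 CPM in the wild-type ones. These did not overlap, but the difference was small and not called (log2 change -0.12, SE 0.0439, adjusted p = 0.216). The share of all genes without overlap was not counted. In male cortex 14% of all genes had an unadjusted edgeR p under 0.05. In females the change of Rxrb was 0.08 (SE 0.0439, adjusted p = 0.788). The difference of the sexes in this change was -0.20 (SE 0.0621, adjusted p = 0.334), in a comparison where 0 genes were called by edgeR, 9.56% had an unadjusted p under 0.05 and DESeq2 called 52.

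Rarb in male cortex measured 10.8, 17.3, 9.05, 11.5 and 12.9 CPM in the PON2-deficient libraries and 8.79, 8.16, 12.8, 8.38 and 7.99 CPM in the wild-type ones (log2 change 0.41, SE 0.169, adjusted p = 0.272). In females the change of Rarb was -0.13 (SE 0.170, adjusted p = 0.932), and the difference of the sexes was 0.55 (SE 0.240, unadjusted p = 0.0339, adjusted p = 0.484). High Rarb and high Rxrg met in some cortical libraries and not in others. Replicate 2 of the PON2-deficient males had 17.3 CPM of Rarb and 23.0 CPM of Rxrg, and replicate 3 of the wild-type males 12.8 and 25.1 CPM. Replicate 5 of the PON2-deficient males had as much Rarb (12.9 CPM) with 16.7 CPM of Rxrg, and replicate 4 of the PON2-deficient females had 7.99 CPM of Rarb with 17.7 CPM of Rxrg. The summed level of 11 striatal projection neuron markers, a list from which Rxrg was left out, is given for the first 2 libraries only. It was also high there, at 1541 and 1357 CPM. That sum ranged from 763 to 1540 CPM in PON2-deficient cortex (median 931) and from 804 to 1360 CPM in wild-type cortex (median 1010), and none of the 11 was under 0.1 CPM; the part of these markers in the Rarb and Rxrg values was not tested beyond the covariate given next. With the mean of these markers as a covariate, chosen after seeing the data, the male change of Rarb was 0.37 (adjusted p = 0.202) and that of Rara 0.33 (adjusted p = 0.243).

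**Figure D3:**
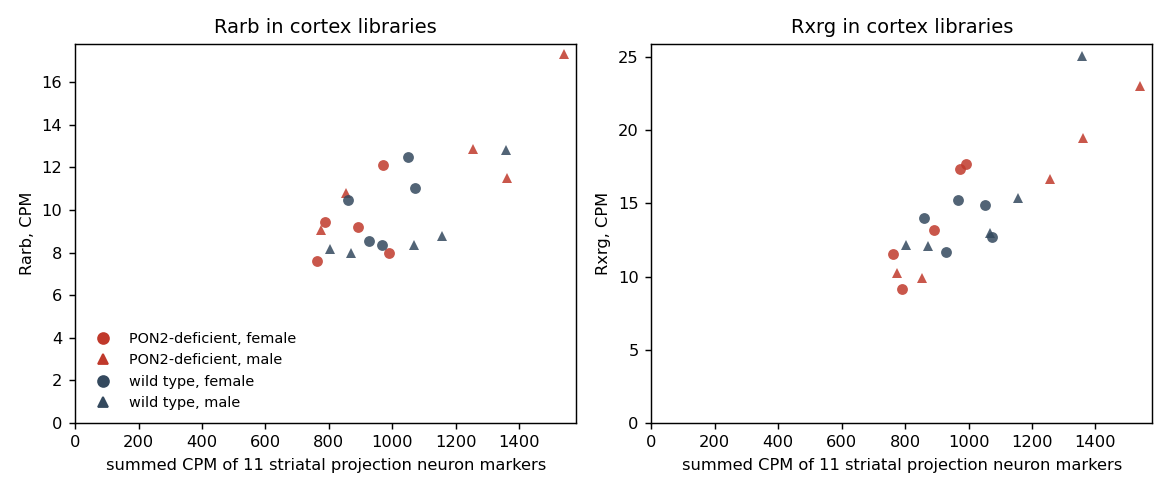
Rarb and Rxrg in CPM in each of the 20 cortex libraries, against the summed CPM of 11 striatal projection neuron markers, with Rxrg left out of the sum. The libraries with the most Rarb (17.3 CPM) and the most Rxrg (25.1 CPM) have sums of 1541 and 1357 CPM.

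In striatum no member was called either, where 2 genes of 18962 (0.0105%) were, with 4.94% of genes and no member at an unadjusted p under 0.05. Rarb measured 45.6 to 87.8 CPM in PON2-deficient striatum (median 64.1) and 51.3 to 89.8 CPM in wild-type striatum (median 72.0). Rxrg measured 66.1 to 128.5 CPM in PON2-deficient striatum (median 105) and 80.3 to 154 CPM in wild-type striatum (median 96.5). For these leading striatal receptors the log2 changes were -0.05 (95% interval -0.28 to 0.17) and 0.06 (-0.19 to 0.30). Rara measured 5.24 to 9.90 CPM in PON2-deficient striatum (median 6.98) and 5.47 to 7.50 CPM in wild-type striatum (median 6.91), a log2 change of 0.12 (SE 0.0972, adjusted p = 0.995). Rarg changed by -0.14 (SE 0.0963), Rxra by 0.00 (SE 0.0700) and Rxrb by -0.02 (SE 0.0566), with adjusted p of at least 0.995. In each sex 1 striatal gene was called (0.00527%), and it was no member. The largest change of a member was that of Rarg in males, at 15.6, 13.7, 12.5, 13.3 and 10.1 CPM in the PON2-deficient libraries and 12.8, 14.9, 16.4, 17.0 and 19.3 CPM in the wild-type ones (log2 change -0.30, SE 0.136, adjusted p = 0.792), the 1 member at an unadjusted p under 0.05, as were 5.96% of genes. In females the Rarg change was 0.03 (SE 0.136), and the difference of the sexes was -0.33 (SE 0.1925, adjusted p = 0.880). The male values of 10.1 and 19.3 CPM came from replicate 5 of each genotype, with mean precision weights of 1.956 and 14.133. No member was called in male striatum under any alternative, with single libraries left out included.

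**Figure D4:**
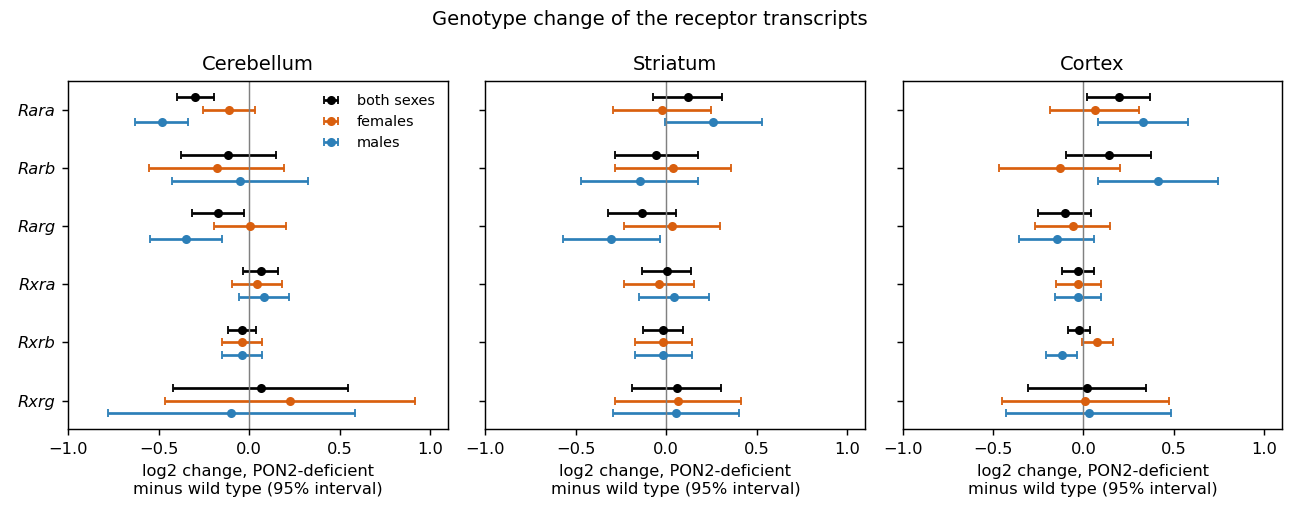
Log2 change of each receptor, PON2-deficient minus wild type, in both sexes, females and males of each region, with 95% intervals of the edgeR fit. In cortex and striatum no change was called. The cerebellar panel holds the Rara change of -0.30 that chose the family, so its intervals are a description and are not read as a test.

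The cerebellar values chose the family and are given as a description. Rara measured 12.6 to 19.9 CPM in PON2-deficient cerebellum (median 15.9) and 18.5 to 22.5 CPM in wild-type cerebellum (median 19.4), and 8 of 10 PON2-deficient libraries were below every wild-type one. In males it was 15.9, 14.5, 12.6, 15.9 and 14.05 CPM in the PON2-deficient libraries, against 21.3, 18.8, 18.9, 22.5 and 20.8 CPM in the wild-type ones, without overlap. In females it was 17.9, 18.7, 16.6, 15.55 and 19.9 CPM in the PON2-deficient libraries, against 18.5, 19.9, 18.7, 18.7 and 19.9 CPM in the wild-type ones, with overlap. The log2 change was -0.30 (SE 0.0525) over both sexes, -0.48 (SE 0.0745) in males and -0.11 (SE 0.0741) in females, where 0.00534% of genes and no member were called. The edgeR adjusted p that chose it was 0.0421, in a comparison that called 0.0321% of 18710 genes, and 0.0136 in males, where 0.016% were called. The next member was Rarg at 0.374, outside the threshold.

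The Rara call, which chose the family, sat close to its threshold. The fits given here reuse those same values. They describe how the call depends on libraries and settings, and are no further test of the change. Of 20 fits that each left out 1 library, 6 kept it and 14 did not, with log2 changes of -0.32 to -0.27 and adjusted p of 0.0187 to 0.118. It was lost without any 1 of female wild-type replicates 1 to 5, male wild-type replicates 1, 2, 4 and 5, female PON2-deficient replicates 1, 3 and 4, or male PON2-deficient replicates 2 and 5. It was also lost with no filter on low counts (adjusted p = 0.0540), with each library's slope of deviation on gene length as a covariate (0.0738) and in a fit over all 60 libraries (0.130), but not with DESeq2 (0.000141) or limma (0.0207). The male call was lost without male wild-type replicates 4 (0.0512) or 5 (0.0602) or male PON2-deficient replicates 2 (0.0679), 3 (0.0563) or 5 (0.0669), with the length slope (0.0646) and in the fit over all 60 libraries (0.0843).

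**Figure D5:**
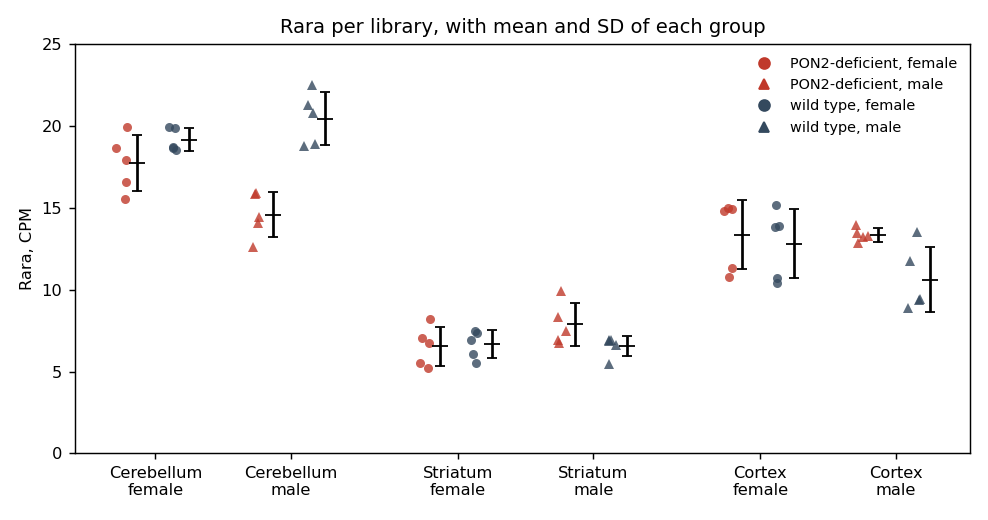
Rara in CPM in every library, by region and sex, with PON2-deficient libraries left of wild-type ones and the mean and SD of each group of 5 beside its points. In male cerebellum the PON2-deficient libraries lie between 12.6 and 15.9 CPM and the wild-type ones between 18.8 and 22.5 CPM.

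Markers of neighbouring tissue varied in the same cerebellar libraries. The summed level of all 14 choroid plexus markers was 41.3 to 2810 CPM in PON2-deficient cerebellum (median 850) and 595 to 2350 CPM in wild-type cerebellum (median 1480), and none of the 14 was under 0.1 CPM. With their mean as a covariate the log2 change of Rara was -0.34 (SE 0.0514). The 12 meningeal fibroblast markers summed to 165 to 314 CPM (median 218) in PON2-deficient and 237 to 308 CPM (median 278) in wild-type cerebellum, and their part in the Rara values was not tested. The 10 ependymal markers summed to 14.8 to 39.7 CPM (median 21.2) in PON2-deficient and 21.1 to 37.1 CPM (median 28.5) in wild-type cerebellum, and their part was not tested either. The 10 granule neuron markers summed to 4940 to 5470 CPM (median 5260) in PON2-deficient and 5120 to 5820 CPM (median 5290) in wild-type cerebellum.

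Rarg in male cerebellum was also without overlap, at 11.6, 10.6, 11.6, 11.3 and 11.5 CPM in the PON2-deficient libraries and 12.9, 13.6, 17.2, 14.7 and 13.8 CPM in the wild-type ones (log2 change -0.35, SE 0.102, not called, edgeR adjusted p = 0.204). In females it was 12.4 ± 2.03 CPM in PON2-deficient and 12.3 ± 1.30 CPM in wild-type cerebellum (SD, n = 5). The share of all genes without overlap in male cerebellum was not counted for comparison with Rara or Rarg. There, 1988 of 18710 genes had an unadjusted edgeR p under 0.05. The other cerebellar changes were -0.11 for Rarb (SE 0.135), 0.06 for Rxra (SE 0.0497), -0.04 for Rxrb (SE 0.0399) and 0.06 for Rxrg (SE 0.248). Side by side, the change of Rara was -0.30 in cerebellum, 0.12 in striatum and 0.20 in cortex, and that of Rarg -0.17, -0.14 and -0.10, the last of which was 0.0201 with the gene length slope as a covariate. The differences between the cerebellar changes and the others rest on the values that chose the family. They were fitted with the rest, but are no test of the members and are not reported here. The change in striatum minus that in cortex, which does not use them, was -0.08 for Rara (SE 0.118, adjusted p = 0.942) and ranged from -0.20 for Rarb to 0.04 for Rxrg over the members, in a comparison that called 0 genes by edgeR, 6.3% of genes at an unadjusted p under 0.05, and 7 by DESeq2.

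No member was called between the sexes. Males against females, over both genotypes, called 0.118% of genes in cerebellum, 0.105% in striatum and 0.0896% in cortex by edgeR, and none of the 6 receptors in any region. The smallest p-values were those of Rarg in cortex (log2 0.18, SE 0.0746, adjusted p = 0.392) and Rxra in striatum (log2 -0.16, SE 0.0700, adjusted p = 0.587).

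The synthesis list holds retinol and retinal dehydrogenases and some reductases that act in the reverse direction. Of its 14 measured genes, 11 were higher and none lower in cerebellum than in cortex, where 40.1% of all genes were higher and 39.5% lower, with a median log2 difference of 0.35 against 0.0029 over all genes, and likewise 11 higher and none lower in cerebellum than in striatum (median 0.70), where 39.7% of all genes were higher and 40.2% lower. Of the 3 measured enzymes that form retinoic acid itself, Aldh1a1 was called between cerebellum and cortex, and Aldh1a2 (log2 0.02, adjusted p = 0.819) and Aldh1a3 (log2 0.18, adjusted p = 0.286) were not. Aldh1a1, which oxidises retinal to retinoic acid, averaged 197 CPM in cerebellum, 39.9 CPM in striatum and 36.3 CPM in cortex, a log2 difference of 2.44 between cerebellum and cortex (SE 0.0693, adjusted p = 7.449e-37). Rdh5, Rdh11 and Rdh10, named as retinol dehydrogenases, were higher in cerebellum than in cortex by 2.11, 0.94 and 0.91. The direction in which these enzymes act was not measured. Aldh1a2, the main enzyme of the embryo and of the meninges, averaged 8.03 CPM in cerebellum and 7.90 CPM in cortex and was lower in striatum, at 2.185 CPM (log2 -1.85 against cortex, SE 0.101, adjusted p = 9.204e-23). Meningeal fibroblast markers moved with it, at sums of 165 to 314 CPM in cerebellum, 46.8 to 142 CPM in striatum and 110 to 341 CPM in cortex, and their part was not tested. Between striatum and cortex 3 enzymes were higher and 3 lower in striatum, where 28.8% of all genes were higher and 28.2% lower.

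The gene of retinoic acid breakdown was also highest in cerebellum. Cyp26b1, the 1 measured enzyme of the family that clears retinoic acid, averaged 27.9 CPM in cerebellum, 6.095 CPM in striatum and 7.70 CPM in cortex, with log2 differences of 2.21 between cerebellum and striatum (SE 0.0926, adjusted p = 7.173e-29) and 1.86 between cerebellum and cortex (SE 0.0909, adjusted p = 7.619e-26). Of 8 genes of retinoid uptake, storage and binding, 1 was higher and 5 lower in cerebellum than in cortex, and 1 higher and 5 lower than in striatum; the 6 called of 8 stand near the 79.6% and 79.8% of all genes called. Crabp1, a cellular carrier of retinoic acid, measured 6.58 CPM in striatum and 1.25 CPM in cortex on average (log2 2.42, SE 0.162, adjusted p = 3.346e-19) and 0.0448 CPM in cerebellum, where some libraries were at 0. Rbp4, the plasma carrier of retinol, was lower in cerebellum than in striatum by -2.14 and than in cortex by -1.91, and Fabp5, which carries retinoic acid to another receptor, by -1.10 and -1.08. Ttr, the partner of Rbp4 in plasma and the leading choroid plexus transcript, was higher in cerebellum than in cortex (3.32, SE 0.711) and than in striatum (2.15, SE 0.675), with single libraries between 3.15 and 2369 CPM in PON2-deficient cerebellum.

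The cofactors and RXR partners were called between cerebellum and cortex about as often as all genes (79.6%). Of 9 coactivators, 5 were higher and 3 lower in cerebellum than in cortex, led by Kat2b, a histone acetyltransferase, at 102 CPM in cerebellum, 27.6 CPM in striatum and 19.1 CPM in cortex (log2 2.42 between cerebellum and cortex, SE 0.0368, adjusted p = 9.686e-50). Of 8 corepressors, 4 were higher and 3 lower in cerebellum than in cortex, with Gps2 the highest (0.81). Of 11 other partners of RXR, 3 were higher and 6 lower in cerebellum than in cortex. Thrb, a thyroid hormone receptor, averaged 10.2 CPM in cerebellum, 45.9 CPM in striatum and 50.1 CPM in cortex (log2 -2.28 between cerebellum and cortex, SE 0.0683, adjusted p = 8.868e-36), and Nr1h3, the liver X receptor α, 8.845, 2.645 and 2.54 CPM in the same order of regions (1.80 between cerebellum and cortex, SE 0.0963). Between striatum and cortex, where 57% of all genes were called, 6 of the 11 were lower in striatum and none higher, led by Pparg (-2.03, SE 0.105).

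The target genes of retinoic acid were called in both directions. Of 10, Rarb among them, 4 were higher and 5 lower in cerebellum than in cortex, and 3 higher and 2 lower in striatum than in cortex, near the shares of all genes called (79.6% and 57%). Drd2, the dopamine receptor of striatal neurons, averaged 2.43 CPM in cerebellum, 220 CPM in striatum and 25.6 CPM in cortex, and its log2 difference of 3.11 between striatum and cortex (SE 0.133, adjusted p = 2.624e-27) stood beside that of 2.71 for Rarb. Ret, the receptor kinase of the GDNF family, was highest in cerebellum, at 39.3 CPM, against 8.30 CPM in striatum and 4.42 CPM in cortex (log2 3.16 between cerebellum and cortex, SE 0.146, adjusted p = 6.858e-27).

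With genotype, no gene of these 7 lists was called in cerebellum, striatum or cortex. The smallest p of the synthesis genes in cortex was that of Aldh1a1, at 38.85 ± 3.96 CPM in PON2-deficient and 33.7 ± 3.91 CPM in wild-type cortex (SD, n = 10; log2 change 0.20, SE 0.0609, adjusted p = 0.180), followed by Adh1 (-0.74, SE 0.342, adjusted p = 0.412), a low gene at 0.115 to 0.5215 CPM in PON2-deficient and 0.221 to 2.26 CPM in wild-type cortex. In striatum Rdh16 came first (0.17, SE 0.125, adjusted p = 0.995), and in cerebellum Adh5 (-0.08, SE 0.0263, adjusted p = 0.214). Cyp26b1 measured 26.9 ± 1.73 CPM in PON2-deficient and 28.96 ± 2.76 CPM in wild-type cerebellum (log2 change -0.11, SE 0.0558, adjusted p = 0.501), with changes of -0.26 in striatum (adjusted p = 0.995) and 0.08 in cortex (adjusted p = 0.892). Among uptake genes Lrp2, an endocytic receptor of retinol carriers, had the smallest p in cortex (-1.27, SE 0.406, adjusted p = 0.211; 0.0396 to 0.378 CPM in PON2-deficient and 0.227 to 2.34 CPM in wild-type libraries) and striatum (0.59, SE 0.220, adjusted p = 0.844). Of the RXR partners, Nr4a2 came first in cortex (0.24, SE 0.0830, adjusted p = 0.262), Nr4a1 in striatum (0.62, SE 0.221, adjusted p = 0.836) and Nr1h2, the liver X receptor β, in cerebellum (0.11, SE 0.0346, adjusted p = 0.232). Among cofactors, Med1 came first in cortex (0.13, adjusted p = 0.474) and striatum (0.15, adjusted p = 0.928) and Ep300 in cerebellum (0.19, adjusted p = 0.435) for the coactivators, and Nrip1 in cortex (0.15, adjusted p = 0.558) for the corepressors. Among target genes, Crabp2 came first in cerebellum (-0.22, adjusted p = 0.498). Median changes of the lists lay between -0.26 and 0.11, where the medians over all genes were -0.00056 in cortex, 0.0098 in striatum and 0.0009 in cerebellum.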

How the data were processed

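RNA from 60 mouse brain libraries was read as 150 nt pairs, per the labels. The authors' table gives expected counts, which are estimates and need not be whole (98.5% were fractional). The submitters' processing notes name 3 tools without a version, Salmon, edgeR and limma; the genome build and annotation behind the counts are not stated in them. The authors' log2 table matched voom log2 CPM recomputed from their counts within 5.33e-14, and the deposited weights are a voom precision score. Both entered only the limma alternative.

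The members and lists were chosen with earlier results of these data known. Symbols and positions came from GENCODE M21 (20403 of 20423 IDs, 99.9%) and start windows from RefSeq. Expected counts were rounded and analysed with edgeR 4.0.16 in R 4.3.3: TMM scaling, filterByExpr, quasi-likelihood F tests (2-sided), Benjamini-Hochberg adjustment over all genes, threshold 0.05. Genotype and sex were tested in 1 fit per region (20 libraries, 4 group means). Regions, and differences of genotype changes between regions, were tested in 1 fit of 60 libraries. SE is the size of the log2 change over the root of F. Levels are CPM on the TMM scale of the 60 libraries; likeness used log2 CPM (prior count 2) over genes averaging 1 CPM or more. The text names all members, up to 4 called genes of a list in each direction between regions, and otherwise those with the smallest p, in some lists the first alone. The alternatives were DESeq2 1.42.0, limma 3.58.1, DESeq2's size factors, no filter, a replicate block, covariates, 1 fit of all libraries and leaving out single libraries. The fits were tested on simulated data. Listed genes that the table does not hold, such as Cyp26a1, were not analysed here. Some listed genes are not reported here by name.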

Additional observations from a re-analysis of the deposited data

Results flagged for a closer look

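In 7 of 72 groups of 5 libraries, 1 library lay far from the other 4 by Dixon's criterion, which chance alone meets in about 1 of 20 groups. Replicate 3 of the wild-type males in cortex was high in 3 members, at 12.8 CPM of Rarb (the others 7.99 to 8.79), 73.7 CPM of Rxrb (63.3 to 65.9) and 25.1 CPM of Rxrg (12.1 to 15.4). In striatum, replicate 1 of the wild-type females had 154.3 CPM of Rxrg (84.4 to 102.0) and replicate 4 of the wild-type males 5.475 CPM of Rara (6.6 to 6.95). In cerebellum, replicate 3 of the PON2-deficient females had 23.97 CPM of Rxra (18.7 to 19.9) and replicate 2 of the PON2-deficient males 10.6 CPM of Rarg (11.3 to 11.6).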

How the results depend on the processing

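All 108 alternative values of the 18 region differences of the members kept their direction and their side of the threshold. Of 628 alternative values of the members' genotype changes in cortex and striatum, 34 turned direction and none was called. The counts of genes called with genotype moved more, and the cause was not tested. DESeq2 called 232 genes in cortex (23 in females, 388 in males, 52 for the difference of the sexes), against 6, 1, 28 and 0 by edgeR. In striatum it called 6 (2 in females, 7 in males, 6 for the difference), against 2, 1, 1 and 0, and in cerebellum 242 (8, 182 and 1), against 6, 1, 3 and 0. For the differences of genotype changes between regions DESeq2 called 7 (striatum minus cortex), 16 (cerebellum minus cortex) and 7 (cerebellum minus striatum), against 0, 3 and 2. Limma called 2 in striatal females and 2 in striatal males, 18 in cerebellum, 12 in cerebellar males and 12 for cerebellum minus cortex. One fit of 60 libraries called 2 in cortex (4 in females, 17 in males), 4 in striatum (18, 11 and 6 for the difference), 13 in cerebellum and 14 in its males. With the gene length slope the counts were 36 in cortex, 1 in its males and 2 in cerebellar females. Replicate numbers were not taken as pairs: 5 of 30 correlations between genotypes were over 0.1 (-0.089 to 0.449, median 0.0685), as were 12 of 60 between regions (-0.072 to 0.168, median 0.0635), and whether equal numbers are 1 mouse is not settled by these values. A replicate block called 30 genes in cortex and 1 in striatum. Leaving out single libraries gave 1 to 36 in cortex (1 to 2 in females, 1 to 177 in males, 0 to 2 for the difference), 1 to 2 in each sex of striatum, 1 to 46 in cerebellum (1 to 2 in females, 2 to 39 in males), and 5 for cerebellum minus cortex without striatal male PON2-deficient replicate 5. The cerebellar Rara change lost its call at -0.298 with no filter, -0.279 with the length slope and -0.299 in 1 fit of 60 libraries, and lay between -0.32 and -0.274 without single libraries. The largest change that turned direction was that of Rarg in cortex, at -0.10. In cortex the length slope turned all 3 members with a lower value. It gave 0.0201 for Rarg, 0.0308 for Rxra and 0.00707 for Rxrb, and the replicate block gave -0.000855 for Rxrg. Striatal Rxra was -0.000629 with DESeq2's size factors, -0.000532 with DESeq2, -0.00601 with the replicate block and -0.0118 with choroid plexus markers. Rarg in cerebellar females was -0.0339 with limma, -0.00314 with the replicate block and -0.0216 with choroid plexus markers. With the longest transcript as length, the shares became 47.2% (Rara), 14.7% (Rarb), 14.8% (Rxra) and 83.9% (Rxrb) in cerebellum, 30.9% (Rxrb) and 58.9% (Rxrg) in striatum, and 30.8% (Rarb), 19.0% (Rxra) and 63.2% (Rxrb) in cortex. Without single libraries, changes ranged from -0.00459 to 0.13 for Rara in cortical females, -0.119 to 0.0464 for Rara and -0.0619 to 0.136 for Rarg in striatal females, -0.0649 to 0.0867 for Rarg in cerebellar females, -0.0334 to 0.0508 for Rxra and -0.0354 to 0.0114 for Rxrb in striatum, and -0.115 to 0.154 (cerebellum) and -0.0672 to 0.138 (cortex) for Rxrg.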
